A study of Gallus gallus with 28 samples.

Results

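An RNA table of the chick anterior preoptic hypothalamus listed 11207 genes. Of these, 100 were chosen because their level was lower after 6 h of heat than in unchallenged libraries, in both parental lineages. Each gene's count was expressed as counts per the usual unit of library depth (CPM, the count divided by the library total and multiplied by 1e6), and log2(CPM + 1) was averaged over the libraries of a group. Of the 4630 genes with a mean of 20 to under 1000 CPM over all 18 libraries, 962 had a heat difference averaged over the lineages of -0.15 or lower and a lipopolysaccharide (LPS) difference between -0.4 and 0.4, all lineages together. The 100 taken from them were those whose less negative heat difference, of the pair from the 2 lineages, was lowest. The genes were thus chosen by their heat and unchallenged values, and their heat differences are given as a description. No gene name could be attached to any of the 100, because the deposited table repeats the identifier in its name column and the available annotation pairs 0 of its identifiers. Roles, pathways, cell type markers and promoter sequences of the 100 genes were not analysed here, and the labelled tissue was not checked against marker genes.

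The libraries came from Cobb chicks (Gallus gallus, a strain bred for meat) on day 10 after hatching. Chicks of both lineages were taken unchallenged (t0, kept at 30 °C), 6 h after a move to 36 °C, or 6 h after injection of LPS into the third ventricle of the brain, with 3 libraries in each of the 6 groups. The LPS groups, like t0, were at a room temperature of 30 °C. The conditioned lineage had parents that were heat conditioned in the egg, which the protocols of the accompanying methylation samples describe as 12 h a day at 39.5 °C from embryonic day 7 to day 16. The non-conditioned lineage had parents from eggs held at 37.8 °C, and none of the chicks had been conditioned in the egg themselves. The labels of the RNA libraries speak of conditioned parents, and those of the methylation samples of the paternal side. There was no group left unchallenged for 6 h and no group injected without LPS, so heat cannot be told apart from the move and the elapsed time. The 10 methylation samples, 5 per lineage, were not analysed here.

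The anterior preoptic hypothalamus holds neurons that sense local brain temperature and receive temperature signals from the skin, and it directs heat loss, which in birds relies largely on panting and skin blood flow. It is also where inflammatory signals such as those set off by LPS, a component of the outer membrane of bacteria, act to produce fever. Embryonic heat conditioning is a rearing practice in poultry in which warmer incubation during part of development alters the later response to heat. The libraries were made from whole tissue with bulk MARS-seq, which counts the 3′ ends of polyadenylated transcripts. In such bulk samples, fewer cells of a type and less RNA per cell cannot be told apart.

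Library totals ranged from 828424 to 4589179 counts. The t0 libraries of the conditioned lineage were shallow, at 828424 to 1422688 counts, and those of the non-conditioned lineage were the deepest, at 3379626 to 4589179. In a principal component analysis of all genes tested, the first component carried 20.5% of the variance, and t0 conditioned libraries 2 and 3 stood apart on it at 32.3 and 60.4, against 18.6 at most for any other library. These libraries entered the choice of the 100 genes. Values without both are given for the heat and LPS medians of the conditioned lineage, the signs of the heat differences and the repeated selection. Other results, the comparison of the lineages at t0 included, are not given without both. The labels number the libraries of a group but do not say that each is a separate animal, so the p-values measure the spread between these libraries, which may be technical.

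Together, the 100 genes made up about 1% of all counts. This share is a sum to which abundant genes add most, with gene means of up to 975 CPM against a median of 46.9 CPM. In the non-conditioned lineage the 100 genes took 0.975%, 1.06% and 1.06% of the counts of the 3 t0 libraries and 0.706%, 0.847% and 0.864% under heat. With conditioned parents they took 1.01%, 1.09% and 1.16% at t0 and 0.856%, 0.746% and 0.938% under heat. The heat libraries lay below the t0 libraries in both lineages without overlap, as the choice of the genes favours. Under LPS the shares were 0.923%, 0.923% and 0.984% in the non-conditioned lineage and 0.991%, 0.919% and 0.819% in the conditioned lineage. Their means of 0.944% ± 0.0349 and 0.910% ± 0.0860 (SD, n = 3 each) lay between the t0 means of 1.03% ± 0.0488 and 1.09% ± 0.0765 and the heat means of 0.806% ± 0.0867 and 0.847% ± 0.0966. The choice took low heat against t0 values and bounded the LPS difference, so it favours this order too.

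**Figure D1:**
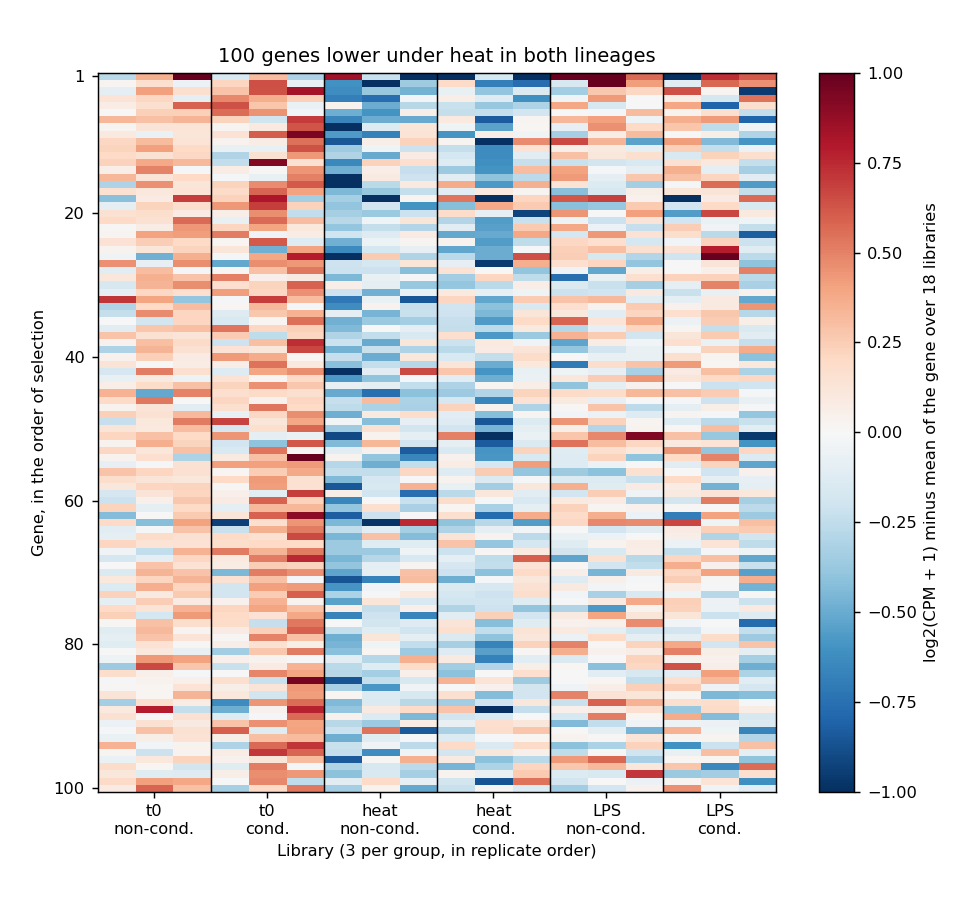
Level of each of the 100 genes (rows, in the order of selection) in each of the 18 libraries (columns, 3 per group), as log2(CPM + 1) minus the gene's mean over all libraries; red is higher and blue is lower. The heat columns other than conditioned library 3 are mostly blue and the 6 t0 columns mostly red, with t0 conditioned libraries 2 and 3 holding the highest value of 54 genes.

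The 100 genes were of modest abundance. Their mean levels ran from 20.2 CPM for ENSGALG00000032491.1 to 975 CPM for ENSGALG00000017320.6, with a median of 46.9 CPM against 65.1 CPM over all genes of the CPM range. There were 53 genes with 20 to under 50 CPM, 26 with 50 to under 100, 12 with 100 to under 200 and 9 with 200 or more. Genes of the range at 20 to under 50 CPM made up 39.5% of it, so the chosen genes leaned to the low end. Their median count was 54 in t0 conditioned library 3 and 231.5 in t0 non-conditioned library 2, and 22 of the 100 had fewer than 20 counts in at least 1 library. The lowest count of any of them in a library was 10. The SD within groups, pooled over the 6 groups, had a median of 0.28 on the log2 scale, against 0.26 over the range.

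In the non-conditioned lineage the heat differences of the 100 genes ran from -0.88 to -0.25 on the log2(CPM + 1) scale, with a median of -0.34. In the conditioned lineage they ran from -0.93 to -0.24, with a median of -0.36. A pseudocount of 1 understates the differences of the lowest genes. The genes of the range as a whole had medians of -0.13 and 0.04, so the background itself differed between the lineages. Scaling by trimmed means (TMM) moved the non-conditioned median of the range by more than 0.1, from -0.13 to -0.01. On that scale the 100 genes had medians of -0.22 and -0.42. Relative to the range they lay at -0.21 for the non-conditioned lineage and at -0.40 for the conditioned one with either scaling. All 100 stayed below 0 in both lineages. Neither is a test of the choice, since TMM factors shift all genes of a library by nearly the same amount. The genes were chosen at -0.24 or lower, and the shift was smaller than that in both lineages.

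With scaling by column sums, most of these differences were small and of similar size in both lineages, which the choice by the less negative value favours. This similarity did not hold with TMM factors, where the edgeR estimates had medians of -0.20 in the non-conditioned lineage and of -0.40 in the conditioned one. The differences exceeded 0.3 in size in both lineages for 57 genes, 0.4 for 11 and 0.5 for 6. For 65 genes the values of the lineages lay within 0.1 of each other, and their absolute gap had a median of 0.07, against 0.32 over the range. By column sums, the larger difference was in the non-conditioned lineage for 48 genes and in the conditioned lineage for 52. In edgeR with TMM factors the conditioned lineage had the more negative estimate for 92 of the 100, against 51.7% of the range. The choice took genes low in both lineages by column sums, where the medians of the range differed between the lineages. The change of scaling then favours a more negative conditioned estimate, so nothing is read from this count. The last gene taken, ENSGALG00000006334.6, had -0.59 and -0.24, and the first left out, ENSGALG00000013232.6, had -0.33 and -0.24. Those values sat side by side in a dense order, so the limit marks no gap. Within the CPM range, 1344 genes were lower under heat in both lineages and 559 higher in both, while 2006 were lower in the non-conditioned and higher in the conditioned lineage and 721 the reverse. Without the limit on LPS, 145 genes would have been as low in both lineages as the last gene taken.

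**Figure D2:**
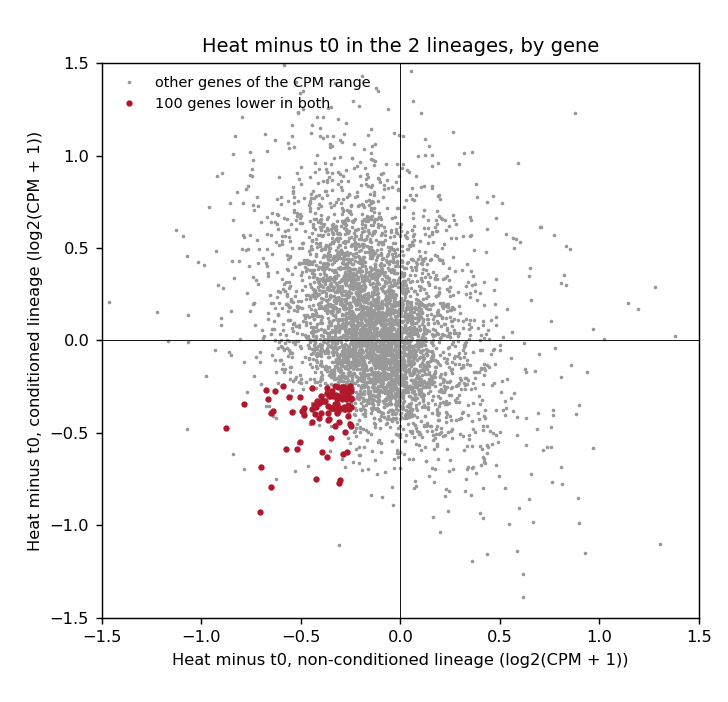
Heat minus t0 for each gene of the CPM range in the non-conditioned (horizontal axis) and conditioned lineage (vertical axis), as differences of mean log2(CPM + 1); red points are the 100 chosen genes and grey points the others, and 28 genes lie outside the axes at ±1.5. The chosen genes fill the near corner of the lower left, where both differences are -0.24 or lower, and the grey cloud is centred near -0.13 on the horizontal and 0.04 on the vertical axis.

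The first gene in the order, ENSGALG00000044563.1, had 32.3, 50.3 and 82.0 CPM at t0 and 70.7, 33.4 and 12.3 CPM under heat in the non-conditioned lineage. Chicks of the conditioned lineage had 35.1, 48.8 and 31.4 CPM at t0 and 15.0, 34.6 and 13.8 CPM under heat. The groups overlapped in both lineages. Its LPS libraries reached 78.4, 98.3 and 58.3 CPM in the non-conditioned lineage and 15.5, 66.0 and 60.5 CPM in the conditioned lineage, and its heat difference averaged over the lineages was -0.71 ± 0.39 (SE) in edgeR, with an adjusted p of 0.780. That SE compares with a median of 0.16 over the 100 genes.

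The second, ENSGALG00000036711.1, had 20.8, 22.9 and 19.5 CPM at t0 and 13.1, 9.54 and 15.7 CPM under heat in the non-conditioned lineage. For the conditioned lineage the values were 23.9, 32.5 and 19.3 CPM at t0 and 23.4, 12.3 and 11.6 CPM under heat. The non-conditioned groups did not overlap, while conditioned heat library 1 lay among the t0 values. With LPS it had 18.1, 46.2 and 27.6 CPM in the non-conditioned and 18.9, 30.9 and 28.4 CPM in the conditioned lineage, so the LPS libraries reached from the level of t0 to above it. Its average heat difference in edgeR was -0.67 ± 0.25 (SE), with an adjusted p of 0.675.

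All other genes named by identifier were chosen after their values were seen. Groups without overlap were found for 37 of the 100 genes in the non-conditioned lineage, where 16.7% of the range had all 3 heat libraries below all 3 t0 libraries. In the conditioned lineage they were found for 25 genes, against 6.07% of the range. In both lineages at once this held for 9 genes, against 0.41% of the range, and for 3 genes all 6 heat libraries lay below all 6 t0 libraries, against 0.13%. For 0 of the 100 did the 6 heat libraries lie below the other 12 libraries, against 0.0216%. The choice of the genes used the same libraries, so these counts describe it and nothing is read from them. With TMM scaling the first 4 counts were 21, 36, 6 and 1, against 8.25%, 8.60%, 0.259% and 0.0648% of the range on that scale.

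Among the 3 genes with all heat libraries below all t0 libraries, ENSGALG00000036577.1 had 81.3, 78.7 and 80.2 CPM at t0 in the non-conditioned lineage and 83.6, 109.6 and 96.6 CPM in the conditioned lineage. Under heat it had 53.3, 55.8 and 61.6 CPM in the non-conditioned and 67.5, 78.2 and 74.5 CPM in the conditioned lineage. Its heat values rose no higher than 78.2 CPM, just under the lowest t0 value of 78.7 CPM, and the conditioned heat libraries all lay above the non-conditioned ones. Its LPS libraries, at 54.3, 65.2 and 76.0 CPM in the non-conditioned and 79.6, 79.7 and 61.8 CPM in the conditioned lineage, spread over much the same span as the heat libraries and reached t0 values. Its average heat difference was -0.41 ± 0.11 (SE) in edgeR, with an adjusted p of 0.437.

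ENSGALG00000042773.2 was steady at t0, with 39.3, 38.1 and 37.6 CPM in the non-conditioned and 40.1, 47.1 and 38.6 CPM in the conditioned lineage. Under heat it had 25.3, 30.8 and 34.9 CPM and 35.6, 31.3 and 34.4 CPM. All heat libraries were lower than all t0 libraries, and its LPS libraries, at 31.6, 31.5 and 29.7 CPM and at 39.98, 32.6 and 32.8 CPM, lay near the heat values in the non-conditioned lineage and spread up to t0 values in the conditioned lineage.

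ENSGALG00000027534.3, the most abundant of the 3, had 212, 202 and 236 CPM at t0 in the non-conditioned lineage and 193, 156 and 192 CPM under heat. Among conditioned libraries it had 214, 243 and 226 CPM at t0 and 149, 159.7 and 140.1 CPM under heat. The step was larger in the conditioned lineage, with an edgeR estimate of -0.67 ± 0.16 (SE) and an adjusted p of 0.244, than in the non-conditioned lineage, with -0.15 ± 0.15 and an adjusted p of 0.912. Whether these estimates differ was not tested.

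**Figure D3:**
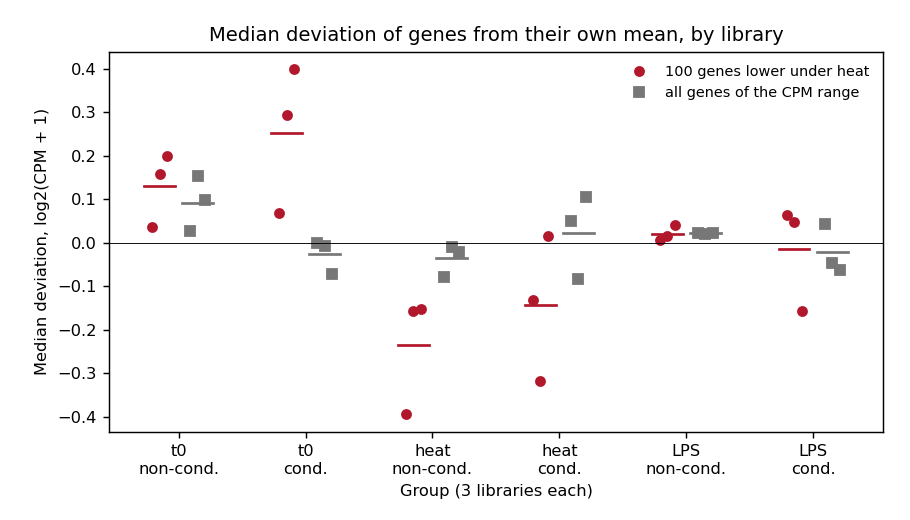
Median over genes of the deviation of log2(CPM + 1) from each gene's own mean, for each of the 3 libraries per group (points) with the group mean (short line), for the 100 chosen genes (red) and all genes of the CPM range (grey). The red points lie between -0.39 and -0.15 in non-conditioned heat libraries and between -0.32 and 0.02 in conditioned ones, and the grey points stay between -0.08 and 0.15.

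The heat libraries differed among themselves. Heat non-conditioned library 1 had a median deviation of the 100 genes from their own means of -0.39, against -0.16 and -0.15 in libraries 2 and 3. In the conditioned lineage, heat library 2 was lowest at -0.32, library 1 was at -0.13 and library 3 at 0.02. Heat non-conditioned library 1 held the lowest value of 29 of the 100 genes and heat conditioned library 2 that of 23, against 9.89% and 10.0% of the range, which were also the highest shares of the range among the 6 heat libraries. These were the shallowest heat libraries, with 1145375 and 1214734 counts, and the part of depth in this was not tested. At t0 the deviations were 0.04, 0.16 and 0.20 in the non-conditioned lineage and 0.07, 0.29 and 0.40 in the conditioned lineage, the highest being libraries 2 and 3 of the latter. Those 2 libraries held the highest value of 54 of the 100 genes, against 20.6% of the range. The choice by heat minus t0 favours low heat and high t0 values, so nothing is read from these shares. Without t0 conditioned libraries 2 and 3, the median heat difference of the 100 genes in the conditioned lineage was -0.21, with 84 genes below 0.

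In edgeR's quasi-likelihood test over 7921 genes, with Benjamini-Hochberg adjustment, 0 of the 100 genes passed an adjusted p of 0.05 for heat in the non-conditioned lineage, in the conditioned lineage or averaged over both. Over all genes tested 0.0505%, 0.0% and 0.0379% passed. The 4 and 3 genes that passed were all higher under heat. At an unadjusted p under 0.05, 6, 34 and 54 of the 100 genes were lower, where 2.69%, 6.29% and 2.68% of all genes tested were. The heat contrasts chose the genes, so nothing is read from these shares. The smallest adjusted p of any of the 100 was 0.507 in the non-conditioned lineage, 0.244 in the conditioned lineage and 0.432 on average. By this test the label of genes lowered by heat describes their estimates, and for none of them alone did the difference hold up against the spread between libraries after adjustment. Their mean heat difference exceeded the pooled SD within groups for 79 of the 100 genes, against 15.2% of the range in either direction. The genes were chosen by this difference, so nothing is read from that excess either.

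DESeq2 called 4 of the 100 genes for heat in the conditioned lineage, ENSGALG00000010175.5, ENSGALG00000026762.3, ENSGALG00000030739.1 and ENSGALG00000027534.3, where it called 0.555% of all genes tested. Without t0 conditioned library 1, edgeR called 4 of the 100 genes there, against 2.54% of all genes tested, and 1 for lineage at t0, against 5.37%. The choice of the genes used the libraries of both contrasts, so nothing is read from these calls. DESeq2 gave no adjusted p for 43 of the 100 genes for heat in the conditioned lineage. Its share of all genes tested counts genes without an adjusted p as not called. ENSGALG00000030739.1 had 118, 80.5 and 96.6 CPM at t0 and 67.2, 40.3 and 66.9 CPM under heat in the conditioned lineage, and 62.8, 79.5 and 106 CPM against 72.5, 54.7 and 69.8 CPM in the non-conditioned lineage. Only the conditioned groups were apart. Its DESeq2 estimate in the conditioned lineage was -0.83 with an adjusted p of 0.0324 (0.0324 to 0.9215 over all settings tried), and its edgeR estimate was -0.81 ± 0.21 (SE) with an adjusted p of 0.244.

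ENSGALG00000026762.3 was likewise lower in every heat library than in every t0 library of its lineage. It had 120.4, 117 and 156 CPM at t0 and 86.4, 102 and 114 CPM under heat in the non-conditioned lineage, and 99.8, 156 and 130.4 CPM against 85.3, 70.8 and 89.7 CPM in the conditioned lineage. Its conditioned estimate was -0.73 with an adjusted p of 0.0324 in DESeq2 (0.0298 to 1.0 over all settings tried) and -0.71 ± 0.18 (SE) with an adjusted p of 0.244 in edgeR.

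When the selection was repeated with each of the 18 libraries left out in turn, 5 genes were chosen every time. These were ENSGALG00000036711.1, ENSGALG00000010749.5, ENSGALG00000001394.6, ENSGALG00000010175.5 and ENSGALG00000036577.1. Across the same repeats 48 genes were chosen at least 15 times, 6 were chosen fewer than 9 times, and 88 kept estimates below 0 in both lineages in all 18. Leaving out an LPS library cannot change the heat differences. The other repeats reused most of the values that chose the genes, so these counts describe the selection and nothing is read from them. ENSGALG00000010175.5 had 78.9, 93.3 and 93.2 CPM at t0 and 55.9, 51.7 and 82.1 CPM under heat in the non-conditioned lineage, and 117, 108 and 77.3 CPM against 66.6, 66.7 and 69.2 CPM in the conditioned lineage. Its conditioned groups were apart, whereas heat library 3 of the non-conditioned lineage overlapped t0. Its edgeR estimate averaged over the lineages was -0.51 ± 0.13 (SE), with an adjusted p of 0.432.

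The other 2 of these 5 genes were low in abundance. ENSGALG00000010749.5 had 26.9, 28.3 and 22.8 CPM at t0 and 14.8, 13.9 and 23.9 CPM under heat in the non-conditioned lineage, and 34.4, 31.7 and 28.97 CPM against 25.6, 22.2 and 15.6 CPM in the conditioned lineage. ENSGALG00000001394.6 had 38.6, 41.0 and 55.6 CPM at t0 and 37.5, 25.7 and 30.1 CPM under heat in the non-conditioned lineage, and 57.6, 44.5 and 35.01 CPM against 31.3, 27.99 and 29.4 CPM in the conditioned lineage. The former overlapped in the non-conditioned lineage and the latter in neither.

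Which genes made up the 100 depended on the scaling and on single libraries. The repeats without 1 library chose between 59 and 96 of them again. TMM scaling chose 54 again, the median-ratio factors of DESeq2 chose 51, and leaving out both t0 conditioned libraries 2 and 3 chose 32. All 100 kept estimates below 0 in both lineages with TMM scaling, whose shift was too small to do otherwise, and 84 did without the 2 libraries.

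**Figure D4:**
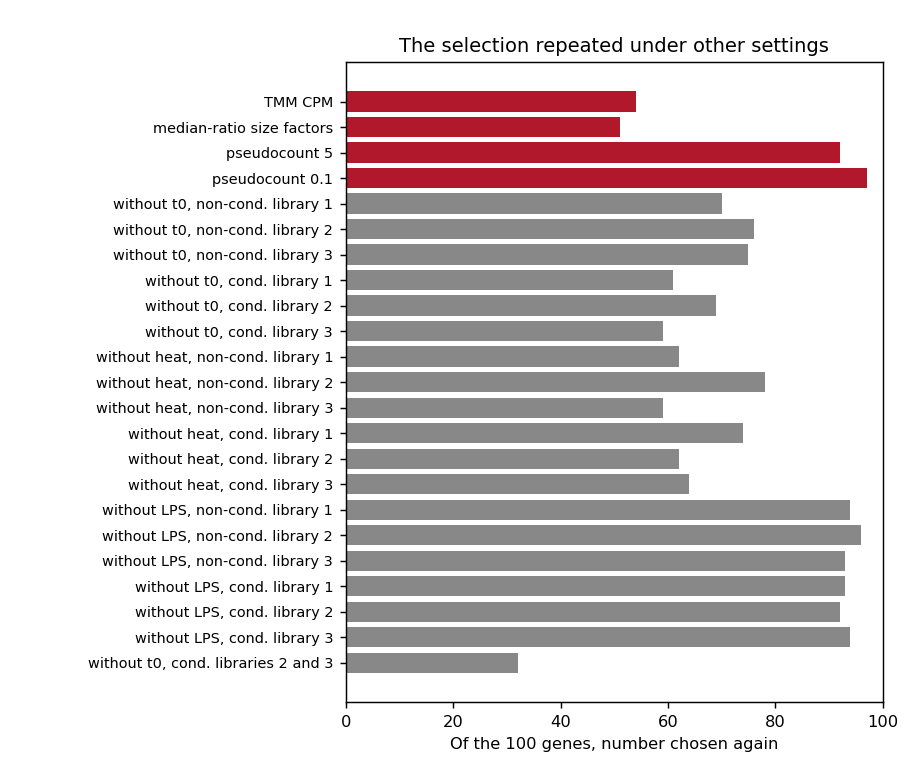
Number of the 100 genes chosen again (horizontal axis, bars from 0) when the selection was repeated with another scaling or pseudocount (red bars) or with libraries left out (grey bars). Leaving out an LPS library kept 92 or more, leaving out a single t0 or heat library kept between 59 and 78, and leaving out t0 conditioned libraries 2 and 3 together kept 32.

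The LPS libraries share the t0 libraries with the heat comparison, and the choice of the genes bounded their average LPS difference, so LPS values are a description too. Averaged over all libraries, the LPS difference of the 100 genes ran from -0.40 to 0.37 with a median of -0.20, against -0.03 over the range. It was below 0 for 86 of the 100 genes, against 56.6% of the range. It was at -0.3 or lower for 26 and above 0.2 for 3, and the range was not counted at these limits. In the non-conditioned lineage the median was -0.11, with -0.08 over the range. In the conditioned lineage it was -0.25, with 0.01 over the range, and it moved to -0.05 without t0 conditioned libraries 2 and 3. Group means under LPS were below the t0 means in both lineages for 67 genes and above them in both for 9. They lay above the heat means in both lineages for 64, and between the heat and t0 means in both for 38. The range was not counted in this way, so nothing is read from these counts. Over the 18 libraries, 79 of the 100 genes had their lowest value in a heat library and 20 in an LPS library, against 31.5% and 28.2% of the range. The highest value was in a t0 library for 75 and in an LPS library for 21, against 48.2% and 25.5% of the range. These shares too are favoured by the choice, and nothing is read from them.

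The lineages were compared at t0, under heat and under LPS with the same edgeR model. The t0 and heat libraries entered the choice of the genes, so of these comparisons only the one under LPS rests on libraries that the choice bounded merely on average. At t0, 0 of the 100 genes passed an adjusted p of 0.05, as did 0.0% of all genes tested, and the smallest adjusted p of the 100 was 0.131. The median estimate was 0.19 higher in the conditioned lineage, with 91 of the 100 genes higher, against 49.5% of the range. At an unadjusted p under 0.05, 13 genes were higher and 0 lower, against 8.09% and 7.6% of all genes tested. The groups were apart with the conditioned lineage higher for 8 genes, against 6.5% of the range, and with it lower for 0, against 16.9%. The conditioned t0 group is the one with the 2 libraries that stood apart and the lowest depth, whose part in this difference was not tested.

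The smallest p at t0 belonged to ENSGALG00000026039.3, with 99.8, 84.3 and 100.3 CPM in the non-conditioned lineage and 103, 161 and 147 CPM in the conditioned lineage. The groups did not overlap, but conditioned library 1 lay just above the non-conditioned ones. Its edgeR estimate was 0.64 ± 0.19 (SE), with an adjusted p of 0.131. DESeq2 called it with an adjusted p of 0.0424 and voom with quality weights with 0.0212, where voom called 5.63% of all genes tested. Over all settings tried, the adjusted p ran from 0.0212 to 0.985 for this gene, from 0.0419 to 0.9587 for ENSGALG00000004845.5 and from 0.0307 to 0.978 for ENSGALG00000040453.1. DESeq2 also called ENSGALG00000004845.5, with an adjusted p of 0.0419, and ENSGALG00000040453.1, with 0.0466, where it called 3.09% of all genes tested. The t0 libraries entered the choice of the genes, so nothing is read from these calls. ENSGALG00000004845.5 had 257, 223 and 336 CPM at t0 in the non-conditioned lineage and 378, 334 and 378 CPM in the conditioned lineage, where the lowest conditioned value lay just under the highest non-conditioned one. ENSGALG00000040453.1 had 226, 261 and 251 CPM against 287, 324 and 310.2 CPM without overlap.

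Under heat, 0 of the 100 genes passed in edgeR, against 0.0252% of all genes tested, and the median lineage estimate was 0.03, with 53 of the 100 genes higher in the conditioned lineage. At an unadjusted p under 0.05, 2 genes were lower, ENSGALG00000026762.3 and ENSGALG00000027534.3, against 3.23% of all genes tested. The groups were apart for 5 genes, all higher in the conditioned lineage, against 9.09% of the range, and 0 were lower without overlap, against 2.74%. One of them, ENSGALG00000031527.1, had 234, 196 and 249.7 CPM under heat in the non-conditioned and 258, 271 and 388 CPM in the conditioned lineage. Its t0 values of 423, 233 and 468 CPM and of 374, 379 and 372 CPM place t0 non-conditioned library 2 among the heat libraries. Without that library its heat difference in the non-conditioned lineage passed in edgeR, at -0.89 with an adjusted p of 0.0457. Over all settings tried that p ran from 0.0457 to 0.785, and the choice used this contrast.

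Under LPS, 0 of the 100 genes passed in edgeR, as did 0.0% of all genes tested, and the smallest adjusted p of the 100 was 0.999. The median lineage estimate was -0.01, with 48 of the 100 genes higher in the conditioned lineage. At an unadjusted p under 0.05, 2 genes were higher and 2 lower, against 2.27% and 1.53% of all genes tested, which is near the background. The groups were apart for 5 genes with the conditioned lineage lower and for 3 with it higher, against 5.7% and 3.24% of the range, also near the background. DESeq2 and voom called 0 of the 100 as well, against 0.0% of all genes tested. Under heat they also called 0, against 0.126% and 0.0252%, though DESeq2 gave no adjusted p for 66 of the 100 there. No lineage difference of these genes under LPS was detectable with 3 libraries per group, where the median SE of an estimate was 0.23.

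The 4 genes past the unadjusted level under LPS went both ways. ENSGALG00000035975.1 had 685, 789 and 1073 CPM in the non-conditioned lineage and 691, 435 and 289 CPM in the conditioned lineage, an edgeR estimate of -0.81 ± 0.31 (SE) with an unadjusted p of 0.0165. Conditioned library 1 lay within the non-conditioned values, so the groups overlapped. ENSGALG00000035616.2 had 30.6, 23.9 and 23.4 CPM against 21.9, 15.4 and 15.8 CPM, and was lower in the conditioned lineage without overlap. ENSGALG00000043359.1 had 34.3, 39.7 and 42.7 CPM against 44.9, 53.2 and 58.6 CPM, and was higher in the conditioned lineage without overlap. ENSGALG00000027534.3 had 149.9, 124 and 189 CPM against 217, 177 and 198 CPM, an estimate of 0.40 ± 0.15 (SE) with an unadjusted p of 0.0182 in edgeR, and its groups overlapped. Its lineage estimate under heat had the other sign, at -0.33 ± 0.16 with an unadjusted p of 0.0451 in edgeR, and the difference between these estimates was not tested.

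**Figure D5:**
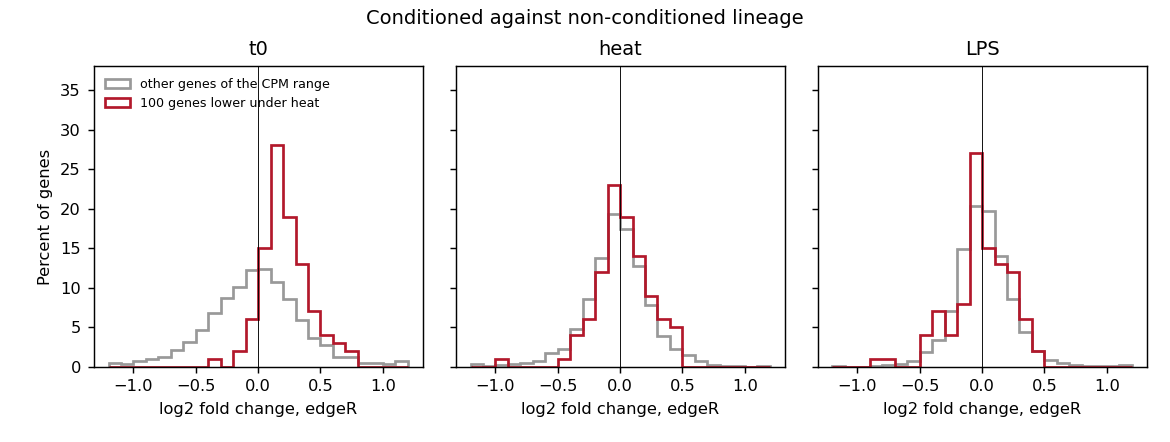
Distribution of the edgeR log2 fold change between the conditioned and non-conditioned lineages (horizontal axis, positive where the conditioned lineage was higher) at t0, under heat and under LPS, as percent of genes in each bin, for the 100 chosen genes (red) and the other genes of the CPM range (grey); values beyond ±1.2 are in the end bins. The red outline is shifted to the right at t0, with a median of 0.19, and is centred near 0 under heat and LPS, with medians of 0.03 and -0.01. The t0 and heat libraries entered the choice of the genes.

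Averaged over t0, heat and LPS, 0 of the 100 genes passed for lineage in edgeR, as did 0.0% of all genes tested. At an unadjusted p under 0.05, 11 genes were higher in the conditioned lineage and 1 was lower, against 4.94% and 4.31% of all genes tested. Estimates were higher in the conditioned lineage in all 3 conditions for 27 of the 100 genes and lower in all 3 for 4, against 11.7% and 13.9% of the range. ENSGALG00000036577.1, described above, was among those higher throughout, with an average lineage estimate of 0.30 ± 0.09 (SE) and an adjusted p of 0.415. The t0 libraries that stood apart are part of this average. So are the t0 and heat values that the choice used, and nothing is read from these shares.

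The difference between the lineages in the LPS response passed for 0 of the 100 genes, and for 0.0% of all genes tested in edgeR. Its median over the 100 genes was -0.22, with 79 of them more negative in the conditioned lineage, while over the range 51.7% had estimates above 0. At an unadjusted p under 0.05, 4 genes were more negative, ENSGALG00000030739.1, ENSGALG00000040244.1, ENSGALG00000004845.5 and ENSGALG00000032763.2, against 2.89% of all genes tested. ENSGALG00000040244.1 had 33.5, 45.5 and 55.0 CPM at t0 and 52.5, 59.2 and 43.8 CPM under LPS in the non-conditioned lineage, and 49.9, 69.3 and 85.7 CPM against 27.9, 60.9 and 35.3 CPM in the conditioned lineage. Its levels under LPS overlapped between the lineages, and at t0 the highest values were those of conditioned libraries 2 and 3. Its estimate was -1.04 ± 0.42 (SE), with an adjusted p of 0.776. This comparison contains the t0 libraries, which the choice of the genes used, and nothing further is read from its direction.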

How the data were processed

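RNA of 18 libraries was measured, and the table lists 11207 Ensembl identifiers. Per the file headers, the authors deposited raw counts and, beside them, normalized signal for the same libraries. Per the submitters' processing notes, the tools were cutadapt, STAR, HTSeq and DESeq2 and the build galGal5. Tool versions and settings, strand use and any gene filter were not given in the sources used here. The 3′ counts depend on annotated transcript ends, and reads shared with paralogs or overlapping genes could not be judged.

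The counts were analysed, and the deposited signal gave only an alternative set of factors. The genes, the gene lists and the tests were chosen with earlier results of these data known. No list of genes could be applied without names. The naming rule then gave the first 2 genes in the order of selection, and genes named beyond it are said to be chosen after their values were seen. Selection values used column sums and a pseudocount of 1. Tests used edgeR 4.0.16 in R 4.3.3 with TMM factors and its filter on low counts (7921 genes, all 100 chosen genes included). The model had 6 group means, with Benjamini-Hochberg adjustment. Each SE given for an edgeR estimate was derived here, as the estimate's size divided by the square root of the test's F statistic. A check on simulated counts used differences larger than nearly all of those of the 100 genes and no libraries that stood apart. It therefore does not cover differences of the size reported here. A pair of groups was called apart when no library of one reached the range of the other in CPM. Alternatives used DESeq2 1.42.0, limma 3.58.1 (voom), other filters, factors and groups, a replicate block, and each library left out. Counts of pairs of libraries within a group differed by more than sampling noise, with a mean chi-square per gene of 4.39 to 21.2. Each library was treated as 1 replicate, though this spread cannot show that they were separate animals. The 10 methylation samples were not analysed here.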

Additional observations from a re-analysis of the deposited data

How the results depend on the processing

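Of 284 values recomputed under an alternative, 265 stayed within their limits and 0 reversed. The limits were a fixed ratio for counts and the SD between libraries of a group for median differences. Most of the values were counts of genes called that were 0 and stayed 0, and only the median differences could reverse. These totals therefore do not measure how stable the selection was. Among the 100 genes, DESeq2 called 4 for heat in the conditioned lineage (0.555% of all genes tested) and 3 for lineage at t0 (3.09%). For lineage at t0, voom with quality weights called 2 (5.63%). The choice used the libraries of both contrasts. Leaving out 1 library gave 0 to 1 genes called for heat in the non-conditioned lineage and for heat on average, both without t0 non-conditioned library 2 (0.049% and 0.0367% of all genes tested), 0 to 4 for heat in the conditioned lineage and 0 to 1 for lineage at t0. The last 2 maxima came without t0 conditioned library 1, where 2.54% and 5.37% of all genes were called. Without t0 conditioned libraries 2 and 3, which were doubted after the data were seen, the median LPS difference in the conditioned lineage was -0.0535 and the selection chose 32 of the 100 again. A lone library in that group was assumed to vary like the other groups. TMM scaling chose 54 again and the median-ratio factors 51, and leaving out 1 library 59 to 96. With TMM, heat and t0 were apart for 21 genes in the non-conditioned lineage (8.25% of the range), for 36 in the conditioned lineage (8.60%, against 25 genes by column sums) and for 1 over all libraries (0.0648%). Median differences without 1 library ran from -0.42 to -0.28 for heat in the non-conditioned lineage and from -0.46 to -0.26 in the conditioned lineage. DESeq2 and voom called 0 of the 100 in the remaining comparisons, heat in the conditioned lineage by voom included. Over all genes tested DESeq2 called 0.341% for heat in the non-conditioned lineage and 0.101% for heat on average. It called 0.126% for lineage under heat and 0.215% for lineage on average. Voom called 0.164%, 0.0252%, 0.0252% and 0.0126% in these, and 0.0505% for heat in the conditioned lineage. Both called 0.0% for lineage under LPS and for the difference in LPS response, so 0 of 100 is near these shares.

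With the replicate number of the titles as a block, 0 of the 100 genes were called in each of the comparisons. Of all genes tested, 0.0% to 0.0757% were called, so the 0 is near the background. Of 45 pairs of same-numbered libraries from different groups, 14 had a correlation of deviations over 0.1, in a span from -0.23 to 0.25. Pairs with different numbers were not compared, so whether the numbers pair the libraries cannot be told from these values. The t0 conditioned libraries were shallow, with a median of 54 counts per chosen gene in library 3. The median SE was 0.22 for lineage at t0 and 0.23 under LPS, where those libraries were not compared. The model shared its estimate of the spread over the 6 groups, so these SEs cannot show whether a single group varied more. The SD of the 100 genes within the t0 conditioned group had a median of 0.29, against 0.16 to 0.28 in the other groups.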
